A study of Mus musculus with 20 samples.

Results

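The late risers shared by both genotypes are 218 probes listed for 207 genes, chosen from 16838 probes (9348 genes) on a two-colour array series of heat shock in mouse fibroblasts. A probe entered if it listed a single gene and had a value on all 20 arrays. In both genotypes its mean over 3, 4, 6 and 8 h had to exceed its mean at 0 h by at least 1 on the log2 scale, and every late array had to lie above every 0 h array. Symbols beginning Hsp, Mt, Irf, Atf, Col, Psm, Rpl, Rps, Nduf, Eif or Usp were left out. The rule read the 0 h and late arrays of both genotypes, so differences of the members between late and 0 h arrays are descriptions without a test. Counts of members from fits on the 0 h arrays or within the late window are printed beside those of all probes, with nothing read from them.

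Cells were HSF1 -/- fibroblasts (called KO) and HSF1 +/+ fibroblasts (called WT), each on 7 heated arrays, 1 at each of 0.5, 1, 2, 3, 4, 6 and 8 h, and on 3 arrays at 0 h. The late window has 4 arrays per genotype and the early window (0.5, 1 and 2 h) has 3. Each array compared a Cy5-labelled sample with a Cy3-labelled pool of mRNA from heated (1 h) and unheated fibroblasts, and the values are log ratios treated as log2 of sample over pool. The heating temperature, any recovery and the origin of the lines are not stated in the labels.

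Neither the base nor the direction of the ratio is stated in the table. Base 10 cannot hold, since the largest absolute value, 10.2, exceeds 4.82, the most that 16-bit signals allow, but natural logarithms remain possible, and folds would then be too small. Sample over pool is the likely direction, because the inducible chaperone Hspa1a had a late difference from 0 h of -0.01 in KO and 5.83 in WT (1 probe). Separate cultures are not stated for the unheated arrays, so a p-value reflects only how far these arrays spread, and genotype cannot be told apart from other differences between the lines. Image numbers in the labels followed time in 9 of 9 steps in KO and 8 of 9 in WT, and all KO numbers lay below all WT numbers, so any effect of that order cannot be told apart from time or genotype, and what the numbers stand for is not stated. Hsf1 had 0 probes listing it alone and was not analysed here. Ratios to a pool carry no absolute level, so the fibroblast label could not be checked against marker levels.

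Heat unfolds proteins, and HSF1 is the transcription factor that binds heat shock elements and switches on chaperone genes in response. Heated cells also change other genes through HSF1-independent routes, among them immediate early genes, growth factor signalling and RNA processing. Several probes of the array can be listed for the same gene, and the probe sequences are not in the tables used here.

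The shared condition was met by 229 of 16838 probes (1.36%), against 492 (2.92%) that met it in KO alone or in both genotypes and 418 (2.48%) that did so in WT. These are the counts that the rule fixes, and nothing is read from them. The 11 probes left out by symbol were 2 for Mt1 and 1 each for Mt2, Atf3, Irf9, Col4a1, Eif2b5, Mtmr9, Ndufaf6, Rpl17 and Rpl7l1. Their late rises lay between 1.23 (Irf9) and 3.21 (Rpl7l1) in KO and between 1.16 (Eif2b5) and 3.22 (Mt2) in WT. The late rise of the members, the late mean minus the 0 h mean, had a median of 1.86 (3.64-fold) in KO and 1.59 (3.00-fold) in WT. Its highest values were 3.85 in KO (Kif28) and 3.11 in WT (Atp5g1). The lesser of the KO and WT rises was at least 2 for 66 probes, 1.5 to 2 for 53 and under 1.5 for 99. The KO rise exceeded the WT rise for 178 of 218 probes, with a median difference of 0.29. Over all probes the median late difference from 0 h was -0.11 in KO and -0.08 in WT. The rule read these arrays and the share over all probes was not computed, so nothing is read from the 178.

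**Figure D1:**
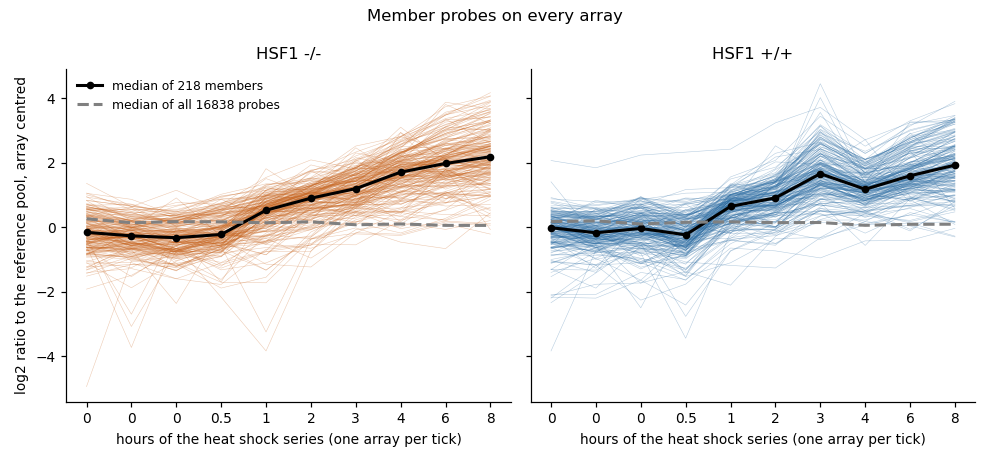
Each thin line is 1 of the 218 member probes, with KO (HSF1 -/-) on the left and WT (HSF1 +/+) on the right. The x axis lists the arrays by hours and the y axis is the array-centred log2 ratio to the pool. The black line is the member median, which ends at 2.18 in KO and 1.92 in WT at 8 h, and the dashed line is the median of all 16838 probes.

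The median course of the members, called the common course here, lay above 0 h from 1 h on in both genotypes. The member median in KO was -0.16, -0.27 and -0.33 at 0 h, then -0.23, 0.52, 0.90, 1.19, 1.70, 1.97 and 2.18 over the heated times. In WT it was -0.02, -0.18 and -0.04 at 0 h, then -0.24, 0.64, 0.91, 1.66, 1.17, 1.59 and 1.92. The course is the rise that the rule asked for. Within it, the WT 4 h array lay below the WT 3 h array in 199 of 218 members, whereas KO 4 h lay below KO 3 h in 32. The median of all 16838 probes was 0.142 at 3 h and 0.055 at 4 h in WT, and 0.072 and 0.097 in KO. The highest array was 8 h for 161 members in KO and 158 in WT. Shares over all probes were not computed for these counts, so nothing is read from them, and an effect of single arrays was not tested. Over all 20 arrays, 121 members (55.5%) had r of at least 0.95 with the median of the other members, against 141 of all 16838 probes (0.837%). Since the rule used the 0 h and late arrays, the 6 early arrays were also taken alone: 88 members (40.4%) had r of at least 0.95 there, against 0.909% of all probes. Both all-probe shares include the members themselves, and the r over 20 arrays also uses arrays that the rule read. These correlations describe probes measured on the same arrays, so anything that an array imposes on a set of probes enters them.

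Probes with no gene name met the conditions more often than probes listing 1 gene. Of 14568 complete probes listing no gene, 736 (5.05%) met them, and of 884 listing several genes 15 (1.70%) did, against 1.36% of the probes listing 1 gene. These 751 probes had median late rises of 1.91 in KO and 1.67 in WT, and 475 of them (63.2%) had r of at least 0.95 with the member median. The same conditions on the 0 h and late arrays chose these probes and the members, so nothing is read from this r. No gene is recorded for the 736, and which of its listed genes each of the 15 reports is not given.

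The 15 genes with the largest lesser rise have varied known roles, and their probes read nearly alike. The highest is listed for Atp5g1, which encodes subunit c of the mitochondrial ATP synthase. KO values of Atp5g1 were -0.62, -0.74 and -0.90 at 0 h and -0.50, 0.90, 1.34, 1.88, 2.69, 3.37 and 3.63 over the 7 heated times. WT values of Atp5g1 were -0.13, -0.44 and 0.00 at 0 h and -0.53, 1.09, 1.60, 3.03, 2.29, 3.02 and 3.35 over the 7 heated times. Its KO 0 h arrays had an SD of 0.14 and its WT 0 h arrays one of 0.23 (n = 3 each), and the late arrays lay far above them in both. Kif28 is listed as a kinesin-family motor gene. KO values of Kif28 were -0.73, -0.76 and -1.21 at 0 h and -0.69, 0.62, 1.28, 2.09, 2.48, 3.48 and 3.77 over the 7 heated times. WT values of Kif28 were -0.17, -0.65 and -0.10 at 0 h and -0.62, 0.92, 1.42, 2.87, 1.99, 2.89 and 3.31 over the 7 heated times. Efhb encodes an EF-hand protein. KO values of Efhb were -0.51, -0.44 and -0.87 at 0 h and -0.78, 0.65, 1.31, 1.86, 2.43, 3.87 and 3.66 over the 7 heated times. WT values of Efhb were 0.23, -0.47 and -0.31 at 0 h and 0.51, 0.91, 1.5, 3.55, 1.38, 3.26 and 3.25 over the 7 heated times. On its WT 4 h array this probe stood at 1.38, between higher values at 3 and 6 h. The probe of 9430038I01Rik has no role given here. KO values of 9430038I01Rik were -0.65, -0.63 and -0.47 at 0 h and -0.53, 0.68, 1.26, 1.83, 2.48, 3.26 and 3.42 over the 7 heated times. WT values of 9430038I01Rik were 0.03, -0.38 and -0.07 at 0 h and -0.51, 0.86, 1.40, 2.90, 2.35, 2.98 and 3.35 over the 7 heated times. Jagn1 encodes a protein of the endoplasmic reticulum membrane. KO values of Jagn1 were -0.85, -0.90 and -1.22 at 0 h and -0.78, 0.36, 1.12, 1.86, 2.30, 3.00 and 3.77 over the 7 heated times. WT values of Jagn1 were -0.36, -0.51 and -0.65 at 0 h and -0.88, 0.74, 1.39, 2.57, 1.90, 2.66 and 2.97 over the 7 heated times.

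The following ones repeat the course with few departures. The 1190007I07Rik probe, with no role given here, stood out by its WT 3 h array. KO values of 1190007I07Rik were -0.50, -0.22 and -0.73 at 0 h and -0.05, 0.44, 1.27, 1.85, 2.24, 3.11 and 3.00 over the 7 heated times. WT values of 1190007I07Rik were -0.21, -0.12 and -0.08 at 0 h and -0.38, 0.76, 1.08, 4.45, 1.59, 2.61 and 2.73 over the 7 heated times. Tspan15 encodes a tetraspanin that partners the protease ADAM10. KO values of Tspan15 were 0.01, -0.13 and -0.50 at 0 h and -0.30, 0.97, 1.51, 2.21, 2.72, 3.47 and 4.17 over the 7 heated times. WT values of Tspan15 were 0.16, 0.00 and 0.42 at 0 h and -0.37, 1.29, 1.69, 3.18, 2.28, 3.13 and 3.90 over the 7 heated times. Pick1 encodes a PDZ-domain protein that binds protein kinase C and AMPA receptors. KO values of Pick1 were -0.86, -0.67 and -0.96 at 0 h and -0.58, 0.71, 1.21, 1.82, 2.14, 3.05 and 3.28 over the 7 heated times. WT values of Pick1 were -0.23, -0.54 and 0.01 at 0 h and -0.61, 0.66, 1.43, 2.79, 1.96, 2.60 and 3.25 over the 7 heated times. Prdm10 encodes a zinc finger protein of the PRDM family. KO values of Prdm10 were -0.80, -0.65 and -0.91 at 0 h and -0.75, 0.59, 1.09, 1.54, 2.31, 3.03 and 3.57 over the 7 heated times. WT values of Prdm10 were 0.02, -0.51 and -0.14 at 0 h and -0.73, 0.88, 1.47, 2.78, 2.09, 2.49 and 3.35 over the 7 heated times. Cacna1d encodes the pore subunit of an L-type calcium channel. KO values of Cacna1d were -0.81, -0.67 and -1.19 at 0 h and -0.68, 0.63, 0.99, 1.75, 2.23, 3.11 and 3.59 over the 7 heated times. WT values of Cacna1d were -0.41, -0.29 and -0.33 at 0 h and -0.87, 0.97, 1.27, 2.20, 1.91, 2.63 and 3.34 over the 7 heated times. In each of these the 0 h and late arrays were apart in both genotypes, as the rule required.

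Arhgap44 encodes a GTPase-activating protein. KO values of Arhgap44 were -0.16, -0.36 and -0.83 at 0 h and -0.32, 0.91, 1.29, 2.05, 2.80, 3.73 and 4.07 over the 7 heated times. WT values of Arhgap44 were -0.14, -0.16 and 0.16 at 0 h and -0.51, 0.85, 1.51, 3.02, 1.99, 2.76 and 3.45 over the 7 heated times. Fubp1 encodes a single-stranded DNA-binding protein known as a regulator of Myc. KO values of Fubp1 were -0.08, -0.56 and -0.29 at 0 h and -0.32, 1.06, 1.54, 2.51, 2.81, 3.51 and 4.06 over the 7 heated times. WT values of Fubp1 were 0.09, -0.10 and 0.37 at 0 h and 0.10, 1.11, 1.81, 3.14, 2.09, 3.18 and 3.46 over the 7 heated times. Zfp12 encodes a zinc finger protein. KO values of Zfp12 were -0.34, -0.46 and -0.75 at 0 h and -0.35, 0.63, 1.27, 1.90, 2.57, 3.09 and 3.68 over the 7 heated times. WT values of Zfp12 were -0.21, -0.63 and -0.06 at 0 h and -0.72, 0.88, 1.25, 2.71, 1.70, 2.46 and 3.29 over the 7 heated times. Retn encodes resistin, a hormone that adipocytes secrete in mice, and it was listed among the adipocyte markers. KO values of Retn were -0.22, -0.28 and -0.67 at 0 h and -0.30, 0.79, 1.40, 1.74, 2.54, 3.19 and 3.57 over the 7 heated times. WT values of Retn were -0.32, -0.31 and 0.05 at 0 h and -0.36, 1.02, 1.42, 2.63, 1.94, 2.70 and 3.29 over the 7 heated times. Noxred1 is named for an oxidoreductase domain. KO values of Noxred1 were -0.44, -0.68 and -0.76 at 0 h and -0.43, 0.78, 1.35, 1.84, 2.58, 3.12 and 3.86 over the 7 heated times. WT values of Noxred1 were -0.03, -0.34 and -0.09 at 0 h and -0.43, 1.24, 1.65, 2.75, 2.10, 2.64 and 3.20 over the 7 heated times. All 15 probes had r of at least 0.94 with the median of the other members over the 20 arrays.

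Of the 80 genes with the largest lesser rise, those after the first 15 lay between 1.74 (Tmem126b) and 2.81 (Zfp267) on that measure. They are grouped here by known role, not by a tested list. Transcription, chromatin and DNA repair genes were Zfp267, Zfp9, Supt20 and Med14 (subunits of the SAGA and Mediator coactivators), Pias1 (a SUMO ligase), Msantd1, Ndn, Smc6 (a subunit of an SMC complex for DNA repair) and Exo5 (an exonuclease). RNA and ribosome genes were Slbp (which binds the histone mRNA stem-loop), Rpp30 (a subunit of ribonuclease P), Polr3f (a subunit of RNA polymerase III), Gtpbp4, Nol9 and Mdn1 (factors of ribosome assembly), and Mrpl27 and Mrpl52 (mitochondrial ribosomal proteins). Signalling genes were Lats1 (a kinase of the Hippo pathway), Rock1 (a kinase of the actin cytoskeleton), Irak1 (a kinase below interleukin 1 and Toll-like receptors), Prkd3, Prkx, Nkiras1, Kalrn, Lifr (the leukaemia inhibitory factor receptor) and Nisch. Protein handling and membrane traffic genes were Vcp (the AAA ATPase p97), Birc6, Ubox5, Xpo4 (a nuclear export receptor), Arcn1 (a COPI coat subunit), Rabggta, Dennd6a, Ktn1, Rtn4, Magt1, Dhdds (which makes dolichol precursors) and Nudcd2. Tulp3 acts in traffic to the cilium. Mitochondrial and metabolic genes were Mfn2 (mitochondrial fusion), Sirt4 (a mitochondrial sirtuin), Tmem126b, Timm8a2, Nmrk1 and Pygl (liver glycogen phosphorylase). Matrix, channel and transport genes were Loxl2, P3h3, Ambn, Kcnq1, Trpm7 and Ank. Outside these groups were Lrrc2, Lrrc74b, Gm16230, Gm5891, Gm10778, Vmn2r-ps129, 2210409E12Rik, 2500004C02Rik, 4732419C18Rik, 2210420H20Rik, 1700007J10Rik, 2310015K22Rik, D4Ertd617e and 1110046J04Rik.

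Where a gene had several probes, the late rise was usually on 1 of them and not on the others. Of the 207 genes, 82 had 1 complete probe, so nothing could be compared, and 125 had others. Taking each member with each other probe of its gene, the other probe was a member in 22 of 251 ordered pairs (8.76%), where 1.36% of all single-gene probes met the conditions. Of the 222 other probes that were no members, 14 (6.31%, from 11 genes) were at least 0.5 above 0 h in both genotypes, against 5.26% of all 16838 probes. The latter share includes the 229 probes that met the conditions, so the sets are unlike and the share without them is lower. The 222 had a median late difference from 0 h of -0.15 in KO and -0.11 in WT, against -0.11 in KO and -0.08 in WT over all probes. These other probes had failed the rule by definition, so their values describe the disagreement and are not a test of it. Where probes disagree, the table does not say which of them reports the named transcript, and the values below are those of a probe, not of a gene.

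**Figure D2:**
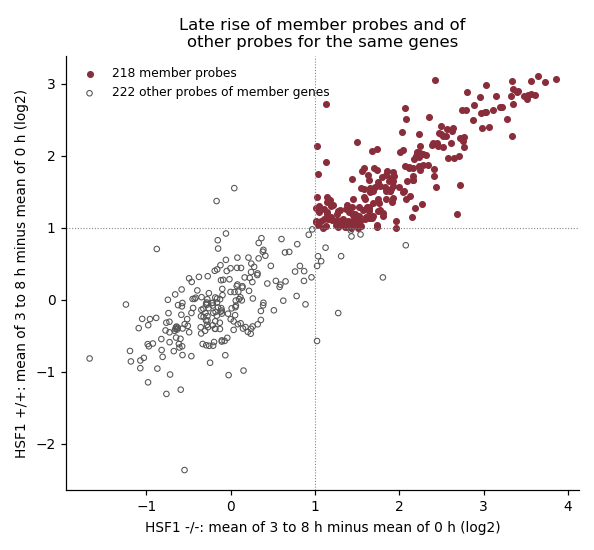
Each point is a probe, with its late mean minus 0 h mean (log2) in KO on the x axis and in WT on the y axis. Filled points are the 218 members, all past 1 on both axes by the rule, and open points are the 222 other probes of their genes, centred near 0.

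Vcp, Azin1, Fubp1, Rock1, Smc6, Tmem134 and Tmem223 each have at least 5 other probes. Vcp encodes p97, which extracts unfolded proteins for the proteasome. KO values of Vcp were -0.44, -0.79 and -0.94 at 0 h and -0.44, 0.54, 1.18, 1.42, 2.28, 2.91 and 3.27 over the 7 heated times. WT values of Vcp were -0.19, -0.01 and -0.34 at 0 h and -0.22, 1.02, 1.40, 2.61, 1.77, 2.61 and 3.03 over the 7 heated times. Its late rise was 3.19 in KO and 2.69 in WT, whereas its 7 other probes had late differences from 0 h of -1.67 to -0.43 in KO and -0.95 to 0.01 in WT. The Fubp1 late rise was 3.53 in KO and 2.85 in WT on its member probe, and its 5 other probes spanned -0.17 to 0.33 in KO and 0.27 to 1.37 in WT. None of the 5 other Fubp1 probes reached 0.5 in KO, whereas all were above 0 h in WT and 4 passed 0.5 there. Rock1 and Smc6 each had a single probe with a late difference far above the rest. The 5 other probes of Rock1 spanned -0.27 to 0.24 in KO and -0.47 to -0.01 in WT, against 2.56 in KO and 2.37 in WT on the member. Smc6 had 5 others spanning -0.29 to 0.14 in KO and -0.64 to 0.17 in WT, against 2.40 in KO and 2.18 in WT. Azin1, which binds antizyme, a regulator of polyamine synthesis, had 6 others spanning -0.72 to 0.87 in KO and -0.45 to 0.40 in WT, against 1.74 in KO and 1.23 in WT. The 5 other probes of Tmem134 spanned -0.63 to 0.26 in KO and -0.61 to -0.36 in WT, against 1.91 in KO and 1.54 in WT on the member. Those of Tmem223 spanned -0.32 to 0.22 in KO and -0.24 to 0.42 in WT, against 1.93 in KO and 1.41 in WT. For Atp5g1 the 2 other probes read -0.57 to -0.28 in KO and -0.64 to -0.35 in WT, below 0 h where the member probe was above it by 3.65 in KO and 3.11 in WT.

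Among the first 15 genes, 7 have other probes. Besides Atp5g1 and Fubp1 these are Jagn1 (-0.21 in KO and -0.64 in WT), 1190007I07Rik (0.12 in KO and 0.44 in WT), Pick1 (0.18 to 0.24 in KO and -0.40 to -0.38 in WT), Cacna1d (0.41 in KO and 0.61 in WT) and Arhgap44 (-0.95 in KO and -0.27 in WT), each given as the late difference from 0 h of the other probes. The other probes of Cacna1d and 1190007I07Rik were above 0 h in both genotypes, those of Jagn1 and Arhgap44 below. The remaining 8 genes have a single complete probe.

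**Figure D3:**
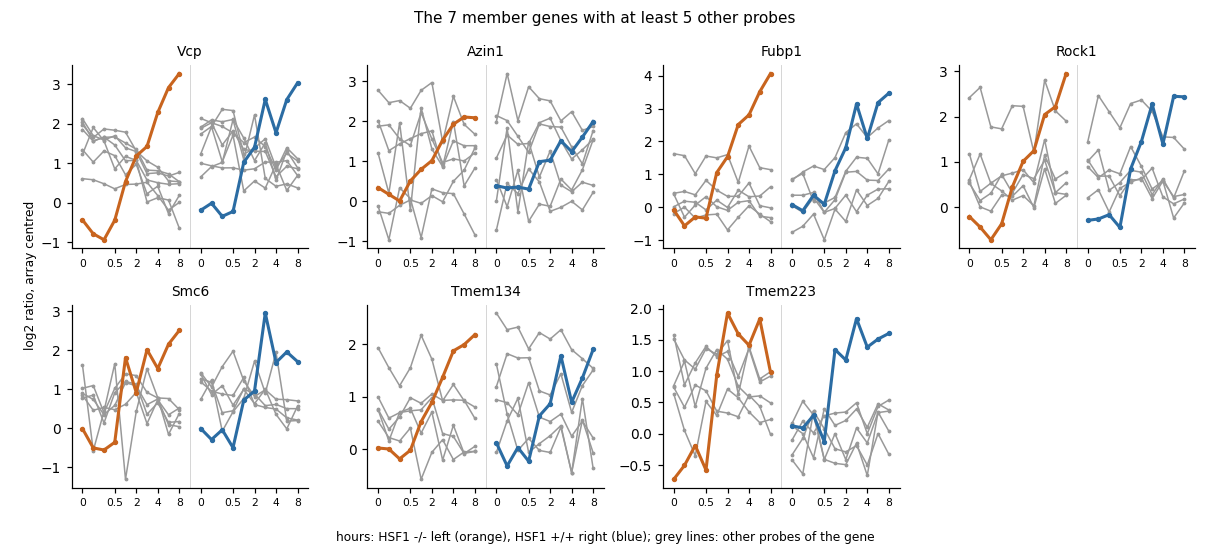
Each panel is a gene, with KO arrays on the left and WT arrays on the right in order of hours (x axis) and the array-centred log2 ratio on the y axis. The coloured line is the member probe and grey lines are the gene's other complete probes, 7 for Vcp, 6 for Azin1 and 5 for each of the others, none of which met the rule.

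The remaining genes with a member and a probe that failed the rule, apart from those of the first 80, were 1810013L24Rik, 4930562C15Rik, 4933434E20Rik, AU020206, Abl2, Acaa1a, Afdn, Alas1, Atp5e, Bbip1, Bola1, Capza1, Ccdc153, Ccz1, Cdc73, Chd8, Cnpy2, Commd6, Cryzl1, Ctnna1, Daam2, Ddx27, Dync1li1, Eef2k, Elapor1, Espl1, Fndc7, Guf1, H2aj, Hat1, Hbegf, Heatr5a, Herc4, Hps4, Khdc1b, Map2k3os, Mastl, Mat2b, Mpv17, Myorg, Naa50, Neat1, Nmrk2, Oaz2, Pabpc4, Pawr, Pkig, Polr1b, Ppfibp1, Psip1, Rac1, Rb1, Rbm34, Rbm8a, Rhpn2, Rrp1, Scaf11, Scnm1, Sec24a, Sfi1, Snrpc, Syt11, Tanc2, Tcf3, Tex9, Thrap3, Tirap, Tra2b, Tsacc, Uck2, Ybx1 and Zw10, with Azin1, Tmem134 and Tmem223 above. Among the first 80, past the first 15, such a probe also existed for Ambn, Ank, Arcn1, Birc6, Dhdds, Gtpbp4, Irak1 and Ktn1. Further ones were Lifr, Lrrc74b, Magt1, Mdn1, Med14, Mfn2, Mrpl27, Mrpl52, Ndn, Nisch, Nkiras1, Nudcd2, Pias1, Polr3f, Prkd3 and Pygl. The rest were Rock1, Rpp30, Rtn4, Slbp, Smc6, Supt20, Tmem126b, Trpm7, Tulp3, Ubox5, Vcp, Xpo4 and Zfp9. In all, 119 genes had such a probe. Among 11 of them another probe was at least 0.5 above 0 h in both genotypes. Commd6 came nearest, with 0.97 in KO and 0.98 in WT on its other probe. Polr1b, a subunit of RNA polymerase I, had 1.54 in KO and 0.91 in WT on another probe. The 3 other probes of 1810013L24Rik spanned 1.13 to 1.42 in KO and 0.61 to 0.96 in WT. Xpo4, Mfn2, Birc6, Herc4, Mpv17, Abl2, 4930562C15Rik and Hbegf were the others.

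More than 1 probe met the rule for 11 genes: 2210409E12Rik, Adsl, Ddx27, Irak1, Lats1, Map2k3os, Noct, Rabggta, Trpm7, Ttc9c and Tulp3. In 6 of these every complete probe was a member, namely 2210409E12Rik, Adsl, Lats1, Noct, Rabggta and Ttc9c, each with 2 probes, so their values do not rest on a single probe. Noct encodes nocturnin, a rhythmic phosphatase that acts on NADP(H). The 2 probes of Noct agreed array by array, with r of 0.99. The first Noct probe read -0.40, -0.29 and -0.88 in KO at 0 h, then -0.34, 0.72, 1.40, 1.42, 2.36, 1.57 and 1.63 over the heated times. The first Noct probe read 0.56, 0.61 and 0.00 in WT at 0 h, then 0.31, 1.30, 2.29, 2.63, 1.53, 1.44 and 1.30 over the heated times. That probe was lowest at 0 and 0.5 h in both genotypes. The second Noct probe read -0.29, -0.49 and -0.55 in KO at 0 h, then -0.35, 0.61, 1.12, 1.46, 2.23, 1.46 and 1.70 over the heated times. The second Noct probe read 0.78, 0.44 and 0.15 in WT at 0 h, then 0.32, 1.20, 2.17, 2.41, 1.36, 1.44 and 1.24 over the heated times. Noct did not climb to 8 h: it was highest at 4 h in KO and at 3 h in WT on both probes. Lats1 encodes a kinase that phosphorylates the Hippo effectors YAP and TAZ. The first Lats1 probe read -0.04, -0.15 and -0.47 in KO at 0 h, then -0.14, 0.81, 1.30, 1.73, 2.66, 3.17 and 3.65 over the heated times. The first Lats1 probe read 0.14, -0.10 and -0.07 in WT at 0 h, then -0.34, 1.13, 1.58, 2.65, 1.90, 2.48 and 3.39 over the heated times. Its late arrays were above every other array in KO and WT. The second Lats1 probe read -1.07, -0.67 and -0.77 in KO at 0 h, then -0.57, 0.03, 0.33, 1.00, 1.28, 1.57 and 1.78 over the heated times. The second Lats1 probe read -0.64, -0.38 and -0.46 in WT at 0 h, then -0.71, 0.32, 0.00, 1.23, 1.15, 1.26 and 1.59 over the heated times. Both Lats1 probes followed the common course, with late rises of 3.02 in KO and 2.62 in WT on the first and 2.24 in KO and 1.80 in WT on the second.

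Adsl encodes adenylosuccinate lyase of purine synthesis. The first Adsl probe read -0.34, -0.33 and -0.46 in KO at 0 h, then -0.49, -0.12, 0.95, 1.34, 1.56, 1.93 and 2.31 over the heated times. The first Adsl probe read 0.04, -0.20 and -0.33 in WT at 0 h, then -0.15, 0.34, 0.70, 1.68, 1.05, 1.44 and 1.86 over the heated times. Late rises of the second Adsl probe were 1.54 in KO and 1.02 in WT. Rabggta encodes a subunit of the enzyme that attaches lipids to Rab proteins. The first Rabggta probe read -0.84, -0.45 and -1.04 in KO at 0 h, then -0.60, 0.70, 0.93, 2.30, 2.02, 3.35 and 2.60 over the heated times. The first Rabggta probe read 1.40, -0.32 and -0.17 in WT at 0 h, then -0.69, 1.01, 1.18, 2.72, 2.11, 2.53 and 2.97 over the heated times. The WT 0 h arrays of that probe were spread, with 1 at 1.40. The second Rabggta probe had a KO 0 h array at -3.73 beside -0.59 and -0.30, and its KO rise was 2.72. Ttc9c encodes a tetratricopeptide repeat protein. The first Ttc9c probe read 1.00, 0.64 and 0.46 in KO at 0 h, then 1.02, 1.34, 1.34, 1.43, 2.10, 2.59 and 2.45 over the heated times. The first Ttc9c probe read 0.66, 0.69 and 0.89 in WT at 0 h, then 0.75, 1.01, 1.26, 1.99, 1.25, 1.88 and 2.25 over the heated times. Its second probe had late rises of 1.73 in KO and 1.01 in WT, just inside the cut in WT. The 2 probes of 2210409E12Rik had late rises of 3.35 and 1.85 in KO and 2.72 and 1.79 in WT. Across the 11 genes the 2 member probes correlated over the 20 arrays with r between 0.782 (Rabggta) and 0.990 (Noct). Outside those with full agreement, Tulp3 and Trpm7 each had a pair of members and further probes near or below 0, and Irak1 had a further probe at 1.28 in KO and -0.18 in WT.

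**Figure D4:**
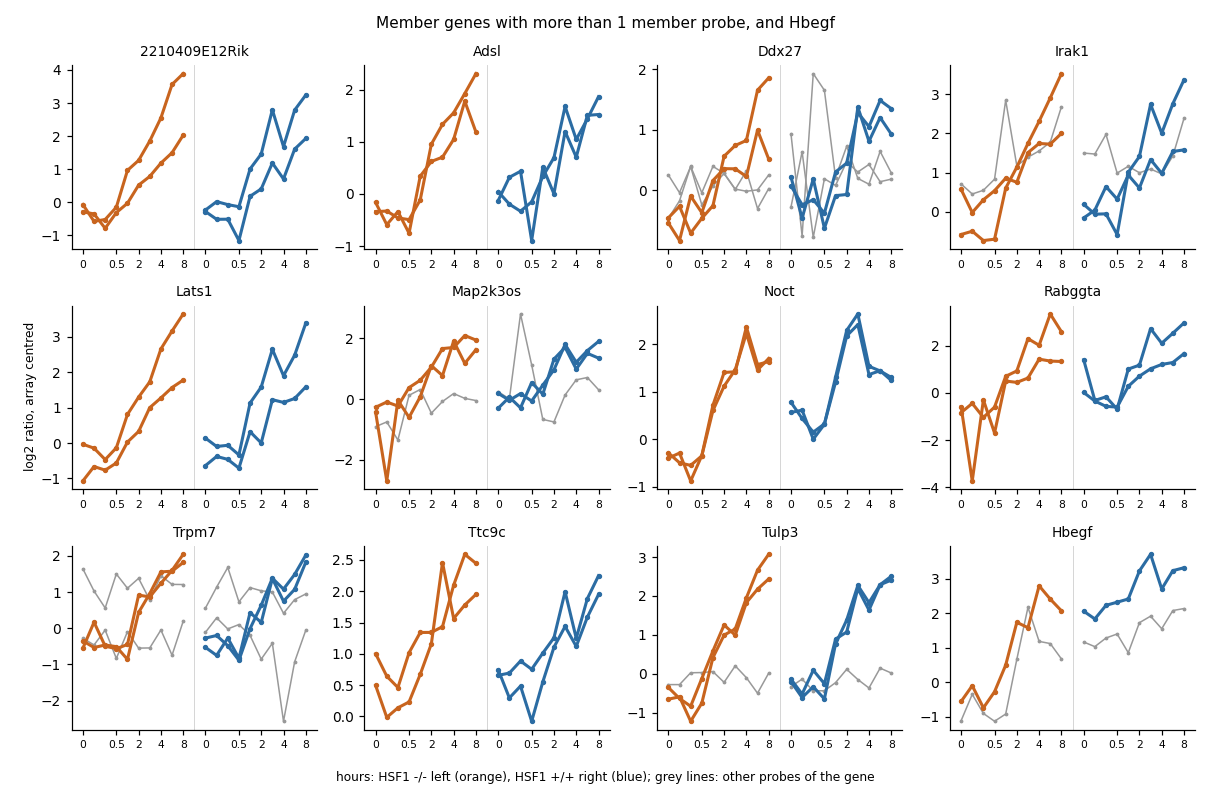
The 11 genes with more than 1 member probe, and Hbegf, are shown with KO arrays (orange) on the left and WT arrays (blue) on the right of each panel, hours on the x axis and the array-centred log2 ratio on the y axis. Coloured lines are member probes and grey lines are other probes of the gene. The Noct lines nearly coincide, and the Hbegf KO line starts 2.51 below the WT line.

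The promoters of 5 of these 6 genes, all but 2210409E12Rik, were found in the RefSeq promoter table for GRCm38.p6. They are shown because they belong to the genes whose late rise does not depend on a single probe. Each is the 250 bases before the annotated start, 5′ to 3′, with matches to any of 12 searched motifs in capitals.
Noct (chr3:51224197-51224446, plus strand): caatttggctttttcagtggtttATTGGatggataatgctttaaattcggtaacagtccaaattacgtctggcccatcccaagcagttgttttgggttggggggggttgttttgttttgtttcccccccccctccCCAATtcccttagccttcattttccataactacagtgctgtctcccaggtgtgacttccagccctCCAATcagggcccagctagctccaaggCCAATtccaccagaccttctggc
Lats1 (chr10:7680959-7681208, plus strand): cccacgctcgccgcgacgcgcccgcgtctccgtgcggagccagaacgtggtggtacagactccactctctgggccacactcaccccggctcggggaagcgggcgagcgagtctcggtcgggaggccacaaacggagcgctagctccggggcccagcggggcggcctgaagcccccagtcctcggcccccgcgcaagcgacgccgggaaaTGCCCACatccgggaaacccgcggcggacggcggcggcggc
Adsl (chr15:80948240-80948489, plus strand): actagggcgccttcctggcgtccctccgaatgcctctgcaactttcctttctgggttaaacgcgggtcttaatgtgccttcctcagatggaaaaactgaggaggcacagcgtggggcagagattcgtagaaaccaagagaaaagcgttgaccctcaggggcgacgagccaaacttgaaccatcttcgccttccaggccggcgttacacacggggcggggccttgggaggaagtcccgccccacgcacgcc
Rabggta (chr14:55722203-55722452, minus strand): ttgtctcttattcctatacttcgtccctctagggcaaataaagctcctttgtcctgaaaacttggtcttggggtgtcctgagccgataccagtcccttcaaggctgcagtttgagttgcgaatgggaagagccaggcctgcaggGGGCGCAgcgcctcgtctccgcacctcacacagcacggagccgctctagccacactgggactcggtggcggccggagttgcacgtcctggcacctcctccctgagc
Ttc9c (chr19:8819295-8819544, minus strand): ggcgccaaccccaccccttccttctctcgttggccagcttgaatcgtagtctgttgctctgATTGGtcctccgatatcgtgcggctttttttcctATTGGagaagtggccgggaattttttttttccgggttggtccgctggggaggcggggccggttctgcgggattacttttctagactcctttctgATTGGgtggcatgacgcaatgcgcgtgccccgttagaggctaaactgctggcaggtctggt

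The motifs were the heat shock element pair GAANNTTC, its tail-to-tail form TTCNNGAA, the AP-1 site TGANTCA and the cyclic AMP response element GACGTCA. Also searched were the C/EBP-ATF element TGATGNAA, the E-box CACGTG, the TATA box TATAAA and TGCNCNC, a loose form of the metal response element core. The last were the interferon response element, the glucocorticoid element ACANNNTGT, the NF-kB site and CCAAT. Both strands were searched and matches may overlap. In the printed windows the capitals mark 4 CCAAT boxes in Noct, 3 in Ttc9c, and 1 TGCNCNC match in each of Lats1 and Rabggta. Adsl had none of the 12. Neither heat shock element form occurs in these windows. Promoters (here 250 bases before to 50 after the start) were found for 171 of the 207 member genes. The first listed promoter of each gene was used. All promoters include those of genes outside the 9348 that could enter the rule, so the compared sets are unlike. GAANNTTC occurred in 13 of them (7.60%), against 7.95% of all 27025 promoters, and TTCNNGAA also in 13 (7.60%), against 8.40%. These shares lay close to those of all promoters. CACGTG occurred in 20 (11.7%), against 7.24%, and TATAAA in 9 (5.26%), against 14.2%. CCAAT occurred in 66 (38.6%), against 37.9%, and TGCNCNC in 95 (55.6%), against 50.4%. None of these differences in share was tested. The AP-1 site occurred in 10 (5.85%), against 7.93%, the cyclic AMP response element in 6 (3.51%), against 3.33%, and the C/EBP-ATF element in 6 (3.51%), against 4.06%. The interferon element occurred in 2 (1.17%), against 3.49%, the glucocorticoid element in 5 (2.92%), against 6.90%, and the NF-kB site in 5 (2.92%), against 1.43%. A match is a run of letters and says nothing on binding.

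The early arrays were not used by the rule, and by 1 h most members already stood above 0 h. On the log2 scale the median rise over the 0 h mean was 0.13, 0.63 and 0.96 in KO and -0.16, 0.66 and 0.93 in WT at 0.5, 1 and 2 h. At 2 h, 205 members lay above every 0 h array in KO and 207 in WT, against 25% of all probes in KO and 24.6% in WT. These values share the 0 h arrays with the rule and are not tested. The slope over 0.5, 1 and 2 h takes its estimate from the early arrays alone, while its error pools all 20 arrays, those read by the rule included. It was tested with limma over all 16838 probes (mean of KO and WT, per doubling of time, Benjamini-Hochberg adjusted p under 0.05). Of all probes, 71 (0.422%) had a slope past the threshold upwards and 15 (0.0891%) downwards. Of the 218 members, 51 (50 genes, 23.4%) rose and 0 fell. At an unadjusted p under 0.05 there were 160, against 9.72% of all probes. Taken by genotype, 0 members passed upwards in KO (106 at an unadjusted p under 0.05) and 14 in WT, against 0.0356% of all probes upwards and 0.0475% downwards in KO (5.99% unadjusted) and 0.273% upwards and 0.232% downwards in WT (11.2% unadjusted). The slope was above 0 in 216 members, with a median of 0.51, against -0.02 over all probes. Of the 222 other probes of member genes, 0 rose and 1 fell, with a median of -0.01. The count depended on single arrays: it was 0 without WT 0.5 h, 1 without KO 2 h and 3 without KO 0.5 h, and 8 with hours in place of log2 hours. It lay between 22 (without KO 6 h) and 74 (without WT 3 h) when any other array was left out, with low counts also without KO 4 h (31), KO 3 h (27), either of the KO 0 h arrays 2 (25) and 3 (26), KO 8 h (23), WT 2 h (24) or WT 6 h (33). No member was called in every one of these fits (0 of 51).

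The 8 member probes with the smallest p were those of Jagn1, 1810013L24Rik, Gtpbp4, Tulp3, 9430038I01Rik, Dennd6a, Supt20 and Med14. Jagn1 rose by 1.04 ± 0.14 per doubling (SE, limma adjusted p = 0.0143), with the array values given above. For 9430038I01Rik, also given above, the slope was 0.92 ± 0.14 (limma adjusted p = 0.0143). The 1810013L24Rik probe levelled off after 2 h in KO and was highest at 2 h in WT. KO values of 1810013L24Rik were 0.05, 0.11 and -0.18 at 0 h and 0.34, 0.98, 1.77, 1.98, 2.03, 1.91 and 1.90 over the 7 heated times. WT values of 1810013L24Rik were 0.06, 0.05 and 0.23 at 0 h and -0.10, 0.97, 1.56, 1.33, 1.05, 0.82 and 1.27 over the 7 heated times. Its slope was 0.77 ± 0.11 (limma adjusted p = 0.0143). Gtpbp4 encodes a GTPase of large ribosomal subunit assembly. KO values of Gtpbp4 were -0.50, -0.80 and -0.84 at 0 h and -0.77, 0.35, 1.10, 1.55, 2.32, 2.96 and 3.44 over the 7 heated times. WT values of Gtpbp4 were 0.03, -0.32 and -0.17 at 0 h and -0.40, 0.99, 1.46, 2.43, 1.81, 2.42 and 2.81 over the 7 heated times. The Gtpbp4 slope was 0.93 ± 0.14 (limma adjusted p = 0.0143). Its 2 other probes had late differences from 0 h of 0.87 to 0.89 in KO and -0.06 to 0.26 in WT. Tulp3 encodes a tubby-like protein. The first Tulp3 probe read -0.65, -0.59 and -1.22 in KO at 0 h, then -0.76, 0.42, 0.99, 1.15, 1.95, 2.66 and 3.07 over the heated times. The first Tulp3 probe read -0.20, -0.61 and -0.33 in WT at 0 h, then -0.65, 0.77, 1.38, 2.27, 1.83, 2.29 and 2.51 over the heated times. The slope of this probe was 0.94 ± 0.14 (limma adjusted p = 0.0143), and the second member probe had 0.68 ± 0.15 (limma adjusted p = 0.0594), short of the threshold.

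Dennd6a encodes an exchange factor for a Rab protein. KO values of Dennd6a were -0.41, -0.19 and -0.53 at 0 h and -0.43, 0.39, 0.90, 0.95, 1.84, 2.14 and 2.51 over the 7 heated times. WT values of Dennd6a were -0.24, -0.47 and -0.04 at 0 h and -0.47, 0.49, 1.40, 1.96, 1.52, 1.65 and 1.84 over the 7 heated times. It rose by 0.80 ± 0.12 per doubling (limma adjusted p = 0.0143). Supt20 encodes a subunit of the SAGA histone acetyltransferase complex. KO values of Supt20 were -0.63, -0.67 and -0.72 at 0 h and -0.92, 0.23, 1.00, 1.34, 2.02, 2.61 and 3.22 over the 7 heated times. WT values of Supt20 were -0.07, -0.40 and -0.40 at 0 h and -0.59, 0.78, 1.22, 2.44, 1.82, 2.13 and 2.83 over the 7 heated times. It rose by 0.93 ± 0.14 (limma adjusted p = 0.0143). The 3 other Supt20 probes had late differences from 0 h of -0.45 to -0.05 in KO and -0.18 to 0.40 in WT. Med14 encodes the backbone subunit of Mediator. KO values of Med14 were -0.76, -0.68 and -0.67 at 0 h and -0.49, 0.18, 0.89, 0.82, 1.52, 1.66 and 1.99 over the 7 heated times. WT values of Med14 were 0.08, -0.32 and -0.27 at 0 h and -0.52, 0.33, 0.92, 1.66, 1.52, 1.83 and 2.29 over the 7 heated times. It rose by 0.70 ± 0.11 (limma adjusted p = 0.0181). The 2 other Med14 probes had late differences from 0 h of -0.65 to -0.01 in KO and -0.52 to 0.29 in WT. In each of the 8 member probes with the smallest p, the early arrays were lowest at 0.5 h and highest at 2 h in both genotypes. Leaving out 1 array brought the adjusted p of each of the 8 above the threshold for at least 1 array, to between 0.416 (Dennd6a) and 0.699 (Supt20) at its highest.

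**Figure D5:**
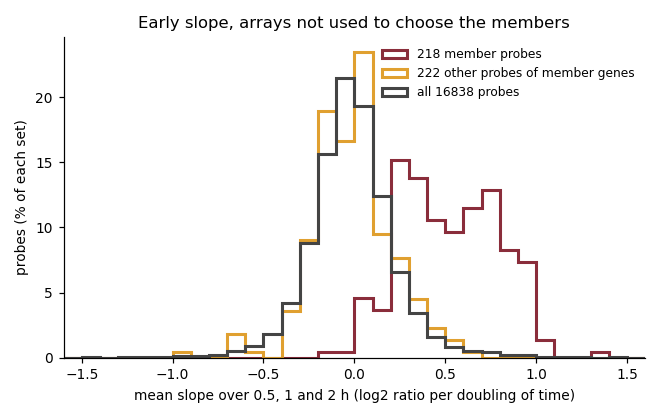
The slope over 0.5, 1 and 2 h, averaged over KO and WT (x axis, log2 ratio per doubling of time), is shown as the percent of probes in each bin (y axis). The 218 members centre on 0.51, whereas the 222 other probes of their genes and all 16838 probes centre near 0.

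The rule read the late arrays, so slopes within that window describe the members and nothing is read from their counts. Over 3, 4, 6 and 8 h the slope per doubling had a member median of 0.51, against -0.04 over all probes. It was past an adjusted p of 0.05 for 0 of 218 members, with 142 at an unadjusted p under 0.05 (8.51% of all probes), and for 4 of all 16838 probes (0.0119% in each direction), by limma. The count of members was 2 without array centring, 1 after quantile normalization and 53 without the WT 3 h array. The late slope had a member median of 0.75 in KO and 0.31 in WT. The difference of slopes between the genotypes passed the threshold for 0 members in the early window, with 3 at an unadjusted p under 0.05. In the late window, again on arrays that the rule read, it did so for 0, with 26 unadjusted. The count was 0 over all 16838 probes in both windows (limma; 7.23% early and 4.37% late at an unadjusted p under 0.05).

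The 0 h arrays were read by the rule, so the counts of members that differed between the genotypes there are descriptions, with nothing read from them. At 0 h, 610 of all probes were higher in KO (3.62%) and 1106 lower (6.57%), while among the members 0 were higher and 1 was lower (limma, adjusted p under 0.05). At an unadjusted p under 0.05, 10 members differed, against 23.7% of all probes. The split over all probes moved with the scaling: 812 of 1717 were higher without centring and 741 of 1422 after quantile normalization, and the member count was 1 in both. The member past the threshold was Hbegf, the gene of heparin-binding EGF-like growth factor, a membrane-anchored ligand of the EGF receptor that is shed in stress. KO values of Hbegf were -0.55, -0.09 and -0.74 at 0 h and -0.27, 0.50, 1.74, 1.59, 2.80, 2.41 and 2.08 over the 7 heated times. WT values of Hbegf were 2.06, 1.84 and 2.23 at 0 h and 2.32, 2.42, 3.23, 3.71, 2.71, 3.24 and 3.32 over the 7 heated times. KO and WT arrays did not overlap at 0 h or in the early window. The 0 h difference of Hbegf, KO minus WT, was -2.51, given as a description. In the early window, whose arrays the rule did not read, it differed by -2.0 ± 0.41 (SE, limma adjusted p = 0.00923), again the 1 member past the threshold, against 247 probes higher (1.47%) and 237 lower (1.41%) in all. At an unadjusted p under 0.05, 4 members differed there, against 15.5% of all probes. Fitted on the early arrays alone, the early difference had an adjusted p of 0.161, and over the other settings it lay between 0.00117 and 0.0575, past the threshold except without WT 2 h or KO 0.5 h. The other Hbegf probe read -1.11, -0.34 and -0.90 in KO at 0 h, then -1.12, -0.92, 0.67, 2.18, 1.19, 1.13 and 0.68 over the heated times. The other Hbegf probe read 1.17, 1.04 and 1.29 in WT at 0 h, then 1.40, 0.86, 1.73, 1.92, 1.56, 2.08 and 2.14 over the heated times. That probe had late rises of 2.08 in KO and 0.76 in WT, the second under the cut. The late rise of the member probe, 2.68 in KO and 1.20 in WT, was 1.48 larger in KO, the most of any member, and its late arrays in KO reached at most 2.80, against 2.71 to 3.71 in WT.

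Members differed in how closely they followed the common course. Over the 20 arrays, 169 of the 218 had r of at least 0.9 with the median of the other members. The lowest r with the member median over 20 arrays was 0.60 for Neurod6, a neuronal transcription factor gene, followed by Daam2, Pabpc4, Srsf12, Hbegf, Spindoc, Hat1, Afdn, 4921531C22Rik and Neat1. KO values of Neurod6 were -0.34, -0.03 and -0.08 at 0 h and -0.22, 0.28, 0.59, 0.45, 0.48, 0.73 and 1.84 over the 7 heated times. WT values of Neurod6 were -3.84, -0.72 and -0.22 at 0 h and -0.37, 0.02, -0.51, 0.34, 0.51, 0.65 and 0.69 over the 7 heated times. Its WT rise of 2.14 has 1 of its 0 h arrays at -3.84, beside -0.72 and -0.22. The member probe of Hat1, the gene of a histone acetyltransferase, had the largest excess in WT, with 1.13 in KO and 2.72 in WT. On its 1 other probe the late difference from 0 h was -0.15 in KO and -0.10 in WT. Daam2, a formin of Wnt signalling, was highest at 3 h in KO and at 4 h in WT. KO values of Daam2 were -0.13, -0.50 and -0.60 at 0 h and -0.11, 0.48, 0.84, 1.51, 1.26, 0.99 and 0.29 over the 7 heated times. WT values of Daam2 were 0.92, 0.57 and 0.41 at 0 h and 0.14, 0.62, 1.24, 1.82, 2.71, 0.95 and 1.18 over the 7 heated times. Neat1, the long noncoding RNA of paraspeckles, was highest at 4 h in KO (3.10) and at 6 h in WT (1.93). Csrnp1, which encodes a nuclear protein induced by AXIN1 in human cells, is a single-probe member. KO values of Csrnp1 were -1.44, -0.97 and -1.27 at 0 h and -0.90, 0.08, 0.20, 0.28, 0.80, 0.76 and 0.95 over the 7 heated times. WT values of Csrnp1 were -0.63, -0.51 and 0.10 at 0 h and -0.49, 0.30, 1.43, 1.76, 0.65, 1.37 and 1.14 over the 7 heated times. It was highest at 8 h in KO and at 3 h in WT. The KO rise exceeded the WT rise by at least 0.5 for 51 members and the reverse held for 7, a description on arrays that the rule read, without a share over all probes.

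Of the 18 pathway lists, 3 held 1 member each, beside 305 other measured genes over all lists. Members made up 207 of all 9348 measured genes, so nothing is read from the 3. Loxl2, a lysyl oxidase family member on the hypoxia list, followed the common course. KO values of Loxl2 were 0.13, -0.66 and -0.58 at 0 h and -0.02, 1.14, 1.72, 2.33, 2.82, 3.48 and 3.93 over the 7 heated times. WT values of Loxl2 were 0.31, 0.40 and 0.72 at 0 h and 0.15, 1.56, 2.07, 3.44, 2.51, 3.30 and 3.83 over the 7 heated times. Smad7, the inhibitory SMAD on the TGF-beta list, was highest at 3 h in KO and at 6 h in WT. KO values of Smad7 were 0.00, 0.33 and 0.12 at 0 h and -0.04, 1.15, 1.52, 1.92, 1.83, 1.69 and 1.53 over the 7 heated times. WT values of Smad7 were 0.80, 0.55 and 0.17 at 0 h and 0.37, 0.75, 1.63, 2.08, 1.61, 2.31 and 1.65 over the 7 heated times. Smad7 had an early slope of 0.70 ± 0.14 (limma adjusted p = 0.0434) and 1 probe. Tra2b, on the splicing list, encodes a regulator of exon choice. KO values of Tra2b were -0.13, -0.11 and 0.40 at 0 h and -0.10, 0.48, 0.80, 1.14, 1.57, 1.55 and 1.73 over the 7 heated times. WT values of Tra2b were 0.02, -0.12 and -0.21 at 0 h and -0.26, 0.27, 0.75, 1.87, 2.09, 0.78 and 1.57 over the 7 heated times. Its 4 other probes spanned 0.20 to 0.51 in KO and -0.44 to -0.04 in WT.

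The other genes of these routes were read as gene means over probes and tested with limma over 9348 genes, of which 4.8% were higher and 9.18% lower late in KO, and 4.4% higher and 4.93% lower late in WT. Of 305 measured genes on 18 pathway lists, members apart, 19 rose and 42 fell in KO, and 25 rose and 20 fell in WT. Without centring 21 of 51 calls were rises in KO, and after quantile normalization 21 of 32 were in WT. Of 21 immediate early and AP-1 genes, 5 rose and 2 fell in KO, among the rises the transcription factor genes Egr1 by 2.79 ± 0.43 and Fos by 1.54 ± 0.28, and 1 (Fosl1) rose and 1 fell in WT. Of 31 cytosolic chaperone genes, 0 rose and 4 fell in KO, and 14 rose and 0 fell in WT, among them Hsph1 at 2.41 ± 0.35. Chaperone genes are the classical HSF1 targets, and immediate early genes respond to growth factor and stress signalling. Of 26 splicing regulators apart from Tra2b, 0 rose and 8 fell in KO, and 1 rose and 7 fell in WT. Of 13 TGF-beta genes apart from Smad7, 3 rose and 2 fell in KO, and 1 rose and 1 fell in WT. Of 23 hypoxia genes apart from Loxl2, 2 rose (Kdm4b and Car9) and 5 fell in KO, and 2 (Kdm4b and Car9) rose and 3 fell in WT. No interferon, circadian or MAP kinase feedback gene rose in either genotype, of 12, 8 and 6 measured. Retn was the only member on the 9 cell type lists. Of 6 other adipocyte markers 0 rose and 1 fell (Fabp4) in KO, and 0 were called in WT. Of 13 fibroblast markers 0 rose in either genotype, with 2 lower in KO and 1 in WT. Of 13 epithelial markers Ocln, a tight junction gene, rose by 1.38 in KO and 0.93 in WT, and the others did not pass the threshold. Of 9 macrophage markers Lyz2 rose in KO, and of 5 lymphocyte markers Cd8a rose in KO, with 0 called in WT. Of 11 muscle markers 0 rose and 1 (Acta1) fell in KO, with 0 called in WT. None of the 6 erythroid, 6 endothelial and 9 neural markers passed the threshold in either genotype. The part of other cell types in the members was not tested.

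The cut itself divided close values. The members nearest inside were Il17f (1.09 in KO, 1.00 in WT), Zw10 (1.43 in KO, 1.00 in WT), 1810013L24Rik (1.96 in KO, 1.00 in WT), Ccz1 (1.51 in KO, 1.01 in WT) and Olfr75-ps1 (1.01 in KO, 1.27 in WT). Nearest outside, meeting every other condition, were Zfp981 (1.77 in KO, 1.00 in WT), Man1c1 (1.58 in KO, 1.00 in WT), Tbc1d23 (1.41 in KO, 0.99 in WT), Noc2l (1.68 in KO, 0.99 in WT) and Calcoco1 (1.51 in KO, 0.99 in WT).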

How the data were processed

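The deposited table holds log2 ratios (base inferred) of 20 two-colour arrays, 42624 probes. The upstream steps of the authors (background, filter, scaling) are not given in the sources used here. Arrays held 39037 to 42220 values, 3.28% were missing, and deposited array medians were -0.53 to -0.18. Precision is limited by how few arrays there are, and spot intensities were not used.

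Each array was centred on its median. The platform table listed 1 gene for 21701 probes, several for 1124 and none for 19799. With limma 3.58.1 in R 4.3.3, 1 linear model per probe with 6 groups (genotype by window) was fitted to all arrays, and another with added slopes on log2 hours within each heated window, 10 residual degrees of freedom. All p-values are two-sided, adjusted by Benjamini-Hochberg across the 16838 probes, with a threshold of 0.05. A heated time has 1 array, so a window's arrays are not replicates. A gene value is the mean of its probes, each relative to its own mean. The models were tested on simulated data.

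The members and lists were chosen with earlier results of these data known. Named are the 80 genes with the largest lesser rise, the first 15 and up to 8 per test with all arrays, 5 on each side of the cut, list members, and members with a disagreeing probe. Other genes were singled out after their values were seen.

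Alternatives were other centring, filters, cuts, arrays left out, fits on 2 groups, gene values, linear hours and a block. The block was the replicate number at 0 h and the hour in the heated windows.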

Additional observations from a re-analysis of the deposited data

Results flagged for a closer look

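Efhb in the WT late arrays was flagged because its 4 h array, at 1.38, lay far below the other 3 (3.55 at 3 h, 3.26 at 6 h and 3.25 at 8 h) for the spread of the group. The arrays of the window are different times, so the gap includes any change over time. Most members had their WT 4 h array below WT 3 h, though the share over all probes was not computed. About 1 in 20 groups would be flagged by chance.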

How the results depend on the processing

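The member count of 218 was 465 with a cut of 0.5, 119 with a cut of 1.5 and 110 genes when probes were averaged first, and 200 to 251 with 1 array left out. KO minus WT at 0 h called 1 member, 4 on gene values and 1 to 3 (without WT 0 h array 2) with 1 array left out, and 2 without WT 0 h array 3. Over all probes it called 1716, against 592 on the 2 groups alone, 763 on gene values and 1000 (without KO 0 h array 3) to 1886 with 1 array left out. In the early window it called 1 member, against 0 on the 2 groups alone, 2 on gene values and 0 to 2 with 1 array left out. It was lost without WT 2 h or KO 0.5 h, and was 2 without KO 2 h. Over all probes it called 484 (247 higher), against 792 without centring (197 higher), 109 on the 2 groups alone, 277 on gene values and 311 (without KO 1 h; 322 without WT 0.5 h) to 531 with 1 array left out.

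Same-numbered 0 h arrays of the genotypes did not deviate together (r of -0.0002, -0.0257 and -0.0130 across probes). This r cannot show whether same-numbered arrays were prepared together. A block by replicate number at 0 h and by hour in the heated windows matched KO with WT arrays. It gave 2 members at 0 h, against 1, and 285 of all probes in the early window, against 484. It moved no other count by over 1.5 times.

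The early slope called 51 members, 8 with linear hours and 0 to 74 with 1 array left out. It called 86 of all probes, 135 after quantile normalization, 27 with linear hours and 13 (without WT 0.5 h) to 151 (without WT 1 h) with 1 array left out. The late slope called 0 members, 2 without centring, 1 after quantile normalization and 0 to 53 (without WT 3 h) with 1 array left out. Over all probes it called 4, against 9 without centring, 28 after quantile normalization, 0 with linear hours, 1 on gene values and 0 to 101 (without WT 3 h) with 1 array left out. Slope differences between genotypes called 0 members in every setting, and over all probes 3 early with linear hours, 0 to 82 early (without KO 0.5 h) and 0 to 8 late (without WT 6 h or WT 8 h) with 1 array left out. List genes called late were 61 in KO and 45 in WT, and 27 (without KO 0 h array 1; 37 without KO 8 h and 39 without KO 6 h) to 66 in KO and 28 (without WT 0 h array 1 or WT 8 h) to 49 in WT with 1 array left out. Counts at 0 h and for the late slope come from arrays the rule read. Causes were not tested. Only 0 h was repeated, and folds would be larger if the logarithms were natural.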
